A study of Mus musculus with 4 samples.

Results

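Hepatic B cell nuclei were 389 of 25611 nuclei (1.52%) kept from 26591 barcodes of single-nucleus RNA sequencing of mouse liver. They were chosen from measured values. A nucleus was a member if it had at least 500 detected genes, at most 5% of its transcripts from the mitochondrial genome, and at least 3 transcript counts summed over Pax5, Bank1, Blk, Ighd, Ms4a1, Cd79b and Btla. It also had to hold 0 counts summed over Stab2 and Ptprb (endothelium), Reln (stellate cells), Cd5l and Clec4f (Kupffer cells), and Skap1 and Themis (T cells). Every count is a unique molecular identifier (UMI), which marks 1 captured RNA molecule.

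The tissue was non-tumor liver of male mice given the carcinogen diethylnitrosamine (DEN) at 25 mg/kg when 14 days old and killed at 12 months. All animals of both genotypes received DEN, so no group without the carcinogen was compared. The libraries were 2 of the genotype labelled Brca1-WT and 2 of Brca1-KO. The series title concerns hepatic Brca1, a DNA repair gene, and Bhmt, which encodes the liver enzyme betaine-homocysteine methyltransferase. The labels give no Cre driver, no deleted exon and no cell type in which Brca1 was removed. They call the samples biological replicates and say nothing more of the animals, so p-values measure the spread between these samples.

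B cells make antibodies. Each carries a B cell receptor, a membrane immunoglobulin built from a heavy chain and a kappa or lambda light chain, which signals through the Cd79a and Cd79b chains. Mature naive B cells co-express the IgM and IgD heavy chains (Ighm and Ighd), while switched B cells use IgG, IgA or IgE, and plasma cells secrete antibody and turn off Pax5. In the liver, B cells are a minor lymphocyte population that circulates through the sinusoids. Pax5 and Ebf1 are the transcription factors that establish and hold B cell identity.

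Values for the 4 libraries are listed below in a fixed order: Brca1-WT replicate 1, Brca1-WT replicate 2, Brca1-KO-labelled replicate 1, and Brca1-KO-labelled replicate 2. The libraries held 45638888, 40077856, 36662067 and 45076257 UMIs in 6841, 7833, 5209 and 6708 barcodes, of which 6589, 7521, 5048 and 6453 nuclei were kept. The B cell nuclei numbered 118, 104, 64 and 103. Their median depth was 1348, 1084.5, 1158.5 and 1241 UMIs, against medians of 4240, 3691, 4666 and 4813 UMIs over all kept nuclei. Summed per library, the B cell nuclei gave 276640, 207984, 133267 and 219110 UMIs. Pairs of libraries shared 9 to 20 cell barcodes, and 0 of these belonged to B cell nuclei in both libraries of a pair.

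Brca1 itself gave 5, 4, 1 and 1 UMIs in B cell nuclei, too few to be tested. In the other kept nuclei it stood at 11.8, 11.1, 17.4 and 5.48 CPM (counts scaled to a common library total), so it was not lower in Brca1-KO-labelled replicate 1. Because the kit reads the 3′ part of transcripts, a deletion elsewhere in the gene may leave the count as it is. Directions below therefore rest on the labels.

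The members separated from the bulk of nuclei along the counts that chose them. Among kept nuclei without a UMI of the 7 genes of other cells, most had 0 or 1 UMI of the 7 B cell genes. At the border, 29 members had exactly 3 UMIs, and 18 of these carried a UMI of at least 1 of 7 B cell markers outside the rule, among them Ebf1, Cd79a, Cd22, Ighm, Fcmr and Ralgps2. Just outside it, 47 nuclei had exactly 2 UMIs, and 27 of these carried such a UMI. The counts at 3 UMIs by library were 3, 5, 8 and 13, so the Brca1-KO-labelled libraries had more members near the border.

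**Figure D1:**
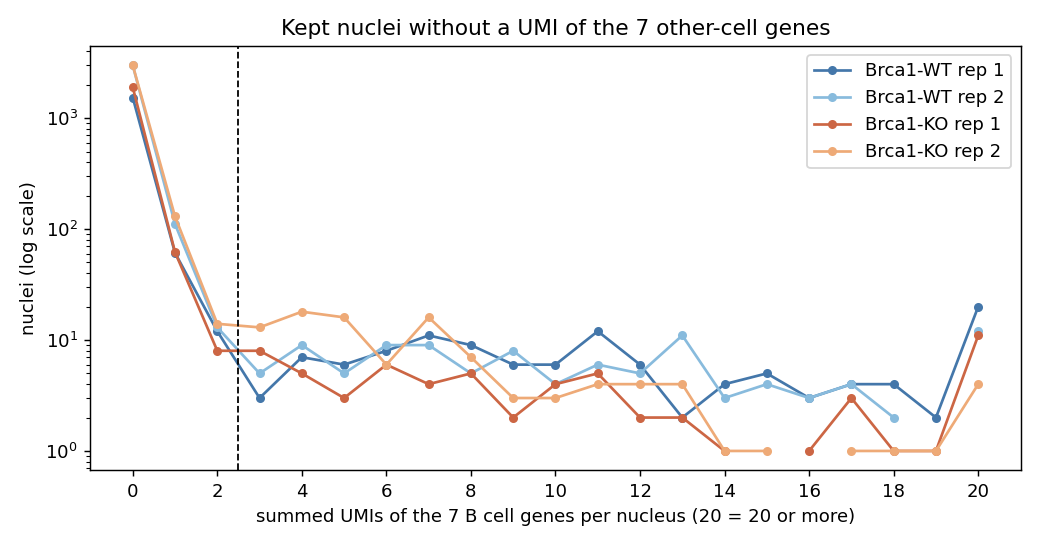
Number of nuclei (vertical axis, log scale) by the summed UMIs of Pax5, Bank1, Blk, Ighd, Ms4a1, Cd79b and Btla per nucleus (horizontal axis, 20 stands for 20 or more), 1 line for each library, among kept nuclei without a UMI of the 7 genes of other cells. The dashed line is the border of the rule; 47 nuclei over the 4 libraries lie at 2 UMIs and 29 at 3 UMIs, while counts of 0 and 1 hold most nuclei.

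The label B cell held against markers that the rule did not use. At least 3 UMIs of the 7 outside markers were found in 340 of the 389 members, and 19 members (4, 2, 8 and 5) had 0. Of these 19, 10 had entered through Btla alone, an inhibitory receptor that dendritic and T cells also carry, and 9 of the 10 held UMIs of Wdfy4, a gene of dendritic cells and B cells that was found in 59.1% of all members. Another 6 had entered through Bank1 alone, a scaffold protein of B cell receptor signalling. Scrublet called 25 members doublets. There were 37 members above 4000 UMIs (13, 10, 6 and 8), and they held 48.3%, 46.7%, 45.9% and 41.4% of the summed UMIs of their libraries, so sums over members lean on few nuclei.

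The limit on genes of other cells removed many nuclei. With at least 3 UMIs of the B cell genes, 585 nuclei (275, 98, 117 and 95) failed it. Of these, 401 carried Cd5l or Clec4f, 360 carried Stab2 or Ptprb, and 282 carried 0 UMIs of the 7 outside B cell markers. Kupffer cell nuclei, taken from their own genes, held Bank1 UMIs in 65.5%, 56.4%, 69.4% and 55.6% of cases, so Bank1 alone did not mark B cells in this tissue.

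Genes of other liver cells were measured in the members as summed, unscaled CPM for each list. Of 24 T and NK cell genes, 14 were at 0 in all 4 libraries, among them Cd3e, Cd3g and Trbc2, which the rule did not use, and Skap1 and Themis, which it did. The list summed to 694, 404, 67.5 and 237 CPM, led by Tox, which alone gave 188, 62, 7 and 48 UMIs. Of 14 neutrophil and mast cell genes, 12 were at 0. Stellate cell genes summed to 86.8, 62.5, 90.0 and 77.6 CPM, and Kupffer cell and macrophage genes to 242, 486, 690.3 and 452 CPM, with Cd5l and Clec4f at 0 by the rule. Endothelial genes summed to 1507, 1188, 1508 and 1502 CPM, with Plpp3 and Pecam1 leading and Stab2, Ptprb and Lyve1 at 0, the first pair by the rule. Dendritic cell genes summed to 1056, 707, 1846 and 826 CPM, led by Wdfy4, which B cells also express.

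Hepatocyte genes were present throughout. All 26 on the list were detected, with a sum of 18960, 20204, 15142 and 15449 CPM against 26805, 28076, 26879 and 21422 CPM in the other kept nuclei. In the members the sum was lower in both Brca1-KO-labelled libraries, but this order rested on deep nuclei. In members of at most 4000 UMIs the sums were 10425, 11895, 9420 and 13440 CPM, and the median share of these genes in a member was 1.17%, 1.12%, 0.998% and 1.42%, both with Brca1-KO-labelled replicate 2 highest. With every nucleus thinned to 500 UMIs, Cps1, an enzyme of the hepatocyte urea cycle, was found in 65.6% of B cell nuclei and in 61.1% of T and NK cell nuclei. The part of hepatocyte RNA in the results below was not tested, and hepatocyte genes are named as such where they occur.

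The genes that set the members most apart from all other kept nuclei included known B cell genes and unnamed gene models. They are given as a description with no test, since the members were chosen on B cell genes. Ranked by the lowest ratio over the 4 libraries, among genes at 50 CPM or more in B cell nuclei of each library, the leading 20 included B3gnt5, Gm47782, Chst3, Pax5, Ighd, Btla, Ebf1, Pou2af1, Gm30211, Cd79a, Ms4a1, Siglecg, Cacna1i, Cd22, Blk, Gm43388, Bcl11a, Gm15987 and Napsa. Of these, Pax5, Ighd, Btla, Ms4a1 and Blk were in the rule, and 15 were not.

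B3gnt5, a glycosyltransferase that starts lacto-series glycolipids, stood at 145, 101, 97.5 and 100.4 CPM in B cell nuclei and at 0.997, 0.278, 0.470 and 0.316 CPM in the others. Chst3, a sulfotransferase of chondroitin, stood at 408, 428, 233 and 278 CPM in B cell nuclei. Its level in the other nuclei was 3.20, 1.24, 0.857 and 1.04 CPM. Ebf1 gave 835, 654, 469 and 540 UMIs in 108, 94, 55 and 89 of the members, 88.9% of them in all. Pou2af1, the coactivator that joins octamer-binding factors on B cell promoters, gave 78, 54, 53 and 49 UMIs. The unnamed models Gm47782 and Gm15987 gave UMIs in 103 and 225 members.

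The upstream windows of the leading genes were searched for the binding motifs of their best known regulators, the EBF1 core (TCCC, then any 2 bases, then GGGA) and the octamer ATGCAAAT, on both strands of 250 bases before the gene start. The motifs were picked after the leading genes were known. RefSeq promoter windows (GRCm38.p6) were matched for 13 of the 20 genes, as 15 windows. The EBF1 core was in 2 of the 15, those of Cd22 and Chst3, and in 256 of all 32851 windows (0.779%). The octamer was in 0 of the 15 and in 1.60% of all windows. Both windows with a match are shown because Cd22, an inhibitory receptor for sialic acid ligands, and Chst3 were leading genes outside the rule. The match is in capitals, starting 49 bases before the gene start in Cd22 (chr7:30879033-30879112, minus strand) and 198 bases before it in Chst3 (chr10:60219414-60219493, minus strand). A match is a description of these letters, not a bound site.
Cd22: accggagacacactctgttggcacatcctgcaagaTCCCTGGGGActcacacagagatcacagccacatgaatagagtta
Chst3: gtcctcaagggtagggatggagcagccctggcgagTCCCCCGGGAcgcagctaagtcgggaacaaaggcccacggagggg

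To compare detection at 1 depth, members and a background of T and NK cell nuclei were each thinned to 500 UMIs. The T and NK cell nuclei (146, 134, 126 and 106) came from a mirrored rule without Themis, at most 4000 UMIs each, with a median of 1402.5, 1002.5, 1282 and 1236.5 UMIs. They had to hold 0 UMIs of Pax5 and Bank1, and members were left out, so low detection of B cell genes there was partly set by the choice. Ebf1 was found in 78.8%, 79.8%, 78.1% and 68.9% of B cell nuclei and in 0.195% of T and NK cell nuclei over the libraries. Blnk, the adaptor that links the receptor to its kinases, was found in 33.9%, 37.5%, 29.7% and 26.2%, against 0.195%. Cd22 was found in 11.3% over the libraries against 0.391%. Unthinned, Cd22 UMIs were in 32.9% of members. The pan-leukocyte gene Ptprc was found in 40.4% of B cell nuclei and in 63.7% of T and NK cell nuclei.

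**Figure D2:**
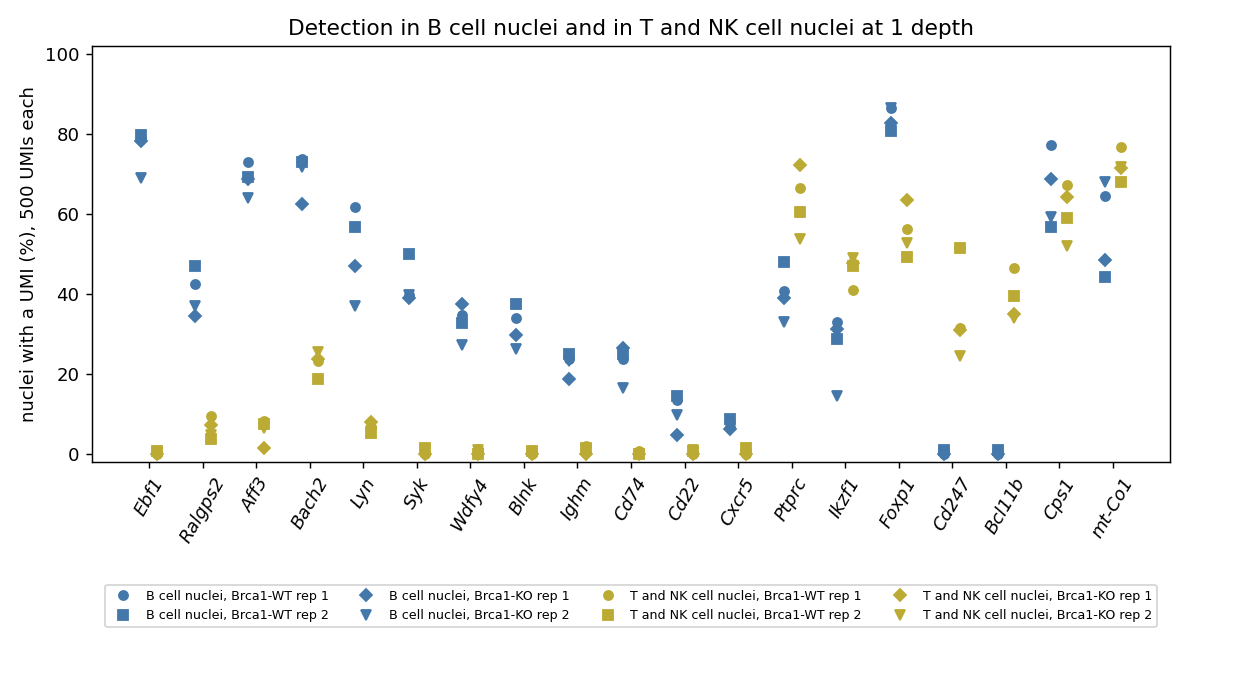
Share of nuclei with a UMI (vertical axis, %) of B cell, T cell, leukocyte, hepatocyte and mitochondrial genes (horizontal axis) after each nucleus was thinned to 500 UMIs, 1 symbol for each library, blue for B cell nuclei and ochre for T and NK cell nuclei. Ebf1, Syk, Blnk, Wdfy4 and Cd74 are found in B cell nuclei and near 0 in T and NK cell nuclei. Cd247 and Bcl11b show the reverse, but they were among the genes that chose the T and NK cell nuclei. Those nuclei also had to hold 0 UMIs of Pax5 and Bank1, so low detection of B cell genes there was partly set by the choice. Hepatocyte Cps1 is found in both (65.6% and 61.1%).

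All 25 B cell transcription factors on the list were detected. Foxp1, a forkhead factor of B cell development, was at 4457, 3829, 4689 and 4860 CPM (from here on, levels in B cell nuclei are CPM with TMM scaling). Bach2, a repressor that holds back plasma cell differentiation, was at 2337, 2407, 2168 and 2233 CPM. Aff3, a nuclear factor of lymphoid cells, was at 2427, 2255, 2109 and 1927 CPM. Both Brca1-KO-labelled libraries lay above both Brca1-WT libraries for Foxp1 and below them for Bach2 and Aff3, and none of these differences passed the edgeR test described below (adjusted p = 0.999 for each). Over all 4711 genes tested, 15.6% lay higher and 16.7% lower in this way without overlap. Ebf1, at 3411, 3562, 3941 and 2956 CPM, overlapped. Prdm1, the factor that drives plasma cell formation, gave only 2, 2, 0 and 1 UMIs.

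Receptor signalling genes were detected for 35 of 35 on the list. Lyn, the kinase that phosphorylates the receptor chains, was at 1369, 1378, 1420 and 1034 CPM. Syk, the kinase they recruit, was at 1095, 964, 756 and 1002 CPM. Bank1 was at 2492, 2380, 2639 and 1735 CPM, and Prkcb, the protein kinase C isoform that carries the signal to NF-kB, at 1279, 1476, 958 and 1264 CPM. The groups overlapped for Lyn, Syk and Bank1 and did not for Prkcb. Of the rule's genes, Cd79b was found in 48 members, Ms4a1 (the CD20 antigen) in 92, Blk, a Src-family kinase, in 133, Ighd in 190, Pax5 in 298, Btla in 313 and Bank1 in 349.

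Antigen presentation genes were detected in full, 17 of 17. Cd74, the invariant chain of MHC class II, was at 400.4, 387, 353 and 334 CPM, and Ciita, the class II transactivator, at 282, 305, 277 and 241 CPM. H2-Eb1, a class II beta chain, was at 249, 169, 126 and 148 CPM. H2-Aa, a class II alpha chain, was at 151, 207, 151 and 131 CPM, where the groups overlapped. Cd74, Ciita and H2-Eb1 lay lower in both Brca1-KO-labelled libraries, while H2-Ob, part of the class II peptide-loading regulator and named after its values were seen, lay higher, at 94.0, 98.0, 143 and 181 CPM. Of the 13 tested genes of this list, 2 lay higher and 5 lower without overlap, and 0 passed the test. Over all 4711 genes tested, 15.6% lay higher and 16.7% lower without overlap.

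Genes of B cell subsets gave few UMIs. Fcer2a (CD23), carried by follicular B cells, gave 21, 22, 5 and 16 UMIs in 55 members. Cr2 (CD21), carried at higher level by marginal zone B cells, gave 17, 25, 9 and 22 UMIs in 55 members. Of 14 B-1 cell genes 12 were detected, led by Zbtb20, which hepatocytes also express, while Cd5 and Zbtb32 were at 0 in all 4 libraries. Rgs13, a gene of germinal centre B cells, was at 0 as well. Among age-associated B cell genes, Tbx21 gave 6, 0, 1 and 0 UMIs and Itgax 2, 4, 7 and 0. Of 25 proliferation genes, 7 were at 0 and none reached the level needed for a test. The shallow nuclei limit what a 0 can say, since a count of 0 in a library allows up to 3 UMIs.

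Immunoglobulin genes separated the members from T and NK cell nuclei. At 500 UMIs, Ighm was found in 23.1% of B cell nuclei and in 1.17% of T and NK cell nuclei. Unthinned, Ighm was found in 64, 52, 32 and 41 members and Ighd in 57, 60, 32 and 41, with both in 43, 35, 19 and 16. At least 1 of these heavy chains was found in 66.1%, 74.0%, 70.3% and 64.1% of members. Co-detection was lowest in Brca1-KO-labelled replicate 2, at 15.5% of members against 36.4%, 33.7% and 29.7%. Switched isotypes came to 9 UMIs in 6 members. Jchain, the joining chain of secreted polymeric antibody, gave 0 UMIs in members. Outside them it gave 54, 52, 60 and 41 UMIs, so the assay did capture it. Outside the members, 9, 5, 8 and 1 nuclei held at least 3 UMIs of the plasma cell genes Jchain, Mzb1, Derl3 and Tnfrsf17, and 0 of them held a Pax5 UMI.

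Light chain constant UMIs were found in 61, 46, 21 and 31 members, which is 51.7% (exact Clopper-Pearson 95% interval 42.3 to 61.0%), 44.2% (34.5 to 54.3%), 32.8% (21.6 to 45.7%) and 30.1% (21.5 to 39.9%). Both Brca1-KO-labelled libraries lay below both Brca1-WT libraries. The order was the same in members of at most 4000 UMIs, at 51.4%, 45.7%, 34.5% and 28.4%. It was also the same at 1000 UMIs for each nucleus, at 41.2%, 35.7%, 30.6% and 27.3%. This share was looked at after the values were known and was not tested. Igkc, the kappa constant gene, also lay lower in both Brca1-KO-labelled libraries, at 163, 191, 92.4 and 98.5 CPM, a log2 fold change of -0.88 (standard error 0.36), which missed the threshold (edgeR, unadjusted p = 0.0390 and adjusted p = 0.999).

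Kappa (Igkc) was found in 31, 27, 8 and 13 members and lambda (Iglc1, Iglc2 or Iglc3) in 43, 26, 15 and 21, with both in 13, 7, 2 and 3. Lambda without kappa made up 30 of 61, 19 of 46, 13 of 21 and 18 of 31 members with either. These shares were 49.2% (36.1 to 62.3%), 41.3% (27.0 to 56.8%), 61.9% (38.4 to 81.9%) and 58.1% (39.1 to 75.5%). The groups did not overlap, with means of 45.2 ± 5.57% and 59.98 ± 2.72% (SD, n = 2 each), a difference of 14.7 percentage points. A 2-sided exact permutation test gave p = 0.333, which is the lowest value possible with 2 libraries a group, and the intervals of all 4 libraries overlapped. The difference stayed between 10.8 and 18.7 points when each library was left out in turn. In T and NK cell nuclei thinned to 500 UMIs, Igkc was found in 0.195% and Iglc2 in 0%, against 7.97% and 6.68% of B cell nuclei. Members with both chains were in the denominator but were not counted as lambda without kappa. Such members were fewer in both Brca1-KO-labelled libraries, where a light chain UMI was also found in a smaller share of members. The part of detection in the lambda difference was not tested, so the share is not a measure of light chain usage. Lambda among members with a single chain was not compared. Near-identical lambda genes may share reads, and a UMI of a constant gene does not show a productive chain. Intervals cover counting error only.

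**Figure D3:**
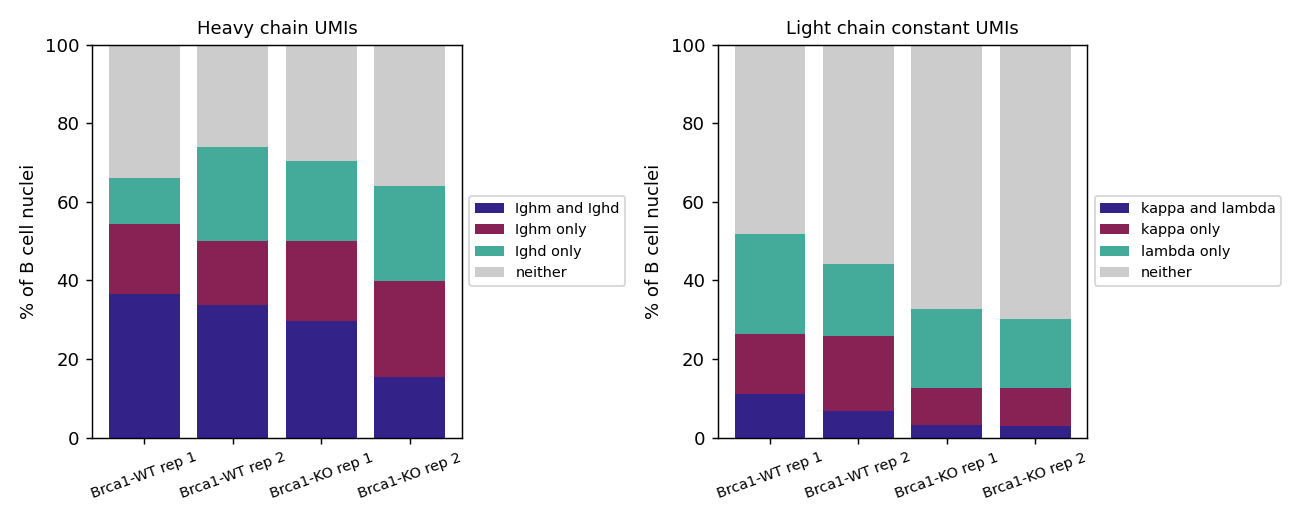
Share of B cell nuclei (vertical axis, %) by the immunoglobulin UMIs they held, 1 stacked bar for each library, heavy chain genes Ighm and Ighd on the left and light chain constant genes on the right. Members with a light chain UMI made up 51.7% and 44.2% with the Brca1-WT label and 32.8% and 30.1% in the Brca1-KO-labelled pair.

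The first comparison of genotypes asked how many B cell nuclei the livers held. They made up 1.79% (1.48 to 2.14%), 1.38% (1.13 to 1.67%), 1.27% (0.978 to 1.62%) and 1.60% (1.30 to 1.93%) of kept nuclei. The groups overlapped. The Brca1-WT libraries averaged 1.59 ± 0.289%, and the Brca1-KO-labelled pair 1.43 ± 0.232% (SD, n = 2 each; 2-sided exact permutation p = 0.667). The difference of -0.155 percentage points turned to 0.0492 without Brca1-WT replicate 1 and to 0.00933 without Brca1-KO-labelled replicate 1. With at least 5 UMIs of the B cell genes in place of 3, the shares were 1.64%, 1.20%, 1.01% and 1.12%, which did not overlap (exact permutation p = 0.333).

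Set against the other lymphocytes of the same library, B cell nuclei numbered 0.694, 0.689, 0.485 and 0.512 for each T and NK cell nucleus, of which there were 170, 151, 132 and 201. The groups did not overlap (means 0.691 ± 0.00380 and 0.499 ± 0.0195, SD, n = 2 each; exact permutation p = 0.333). This order was lost when the T and NK cell set was drawn otherwise. In Brca1-KO-labelled replicate 2, 90 of the 201 T and NK cell nuclei were above 4000 UMIs, against 20, 13 and 6 in the other libraries. With Themis left out of the rules the ratios were 0.728, 0.709, 0.504 and 0.904, and in nuclei of at most 4000 UMIs they were 0.700, 0.681, 0.460 and 0.856. Under both settings the groups overlapped.

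**Figure D4:**
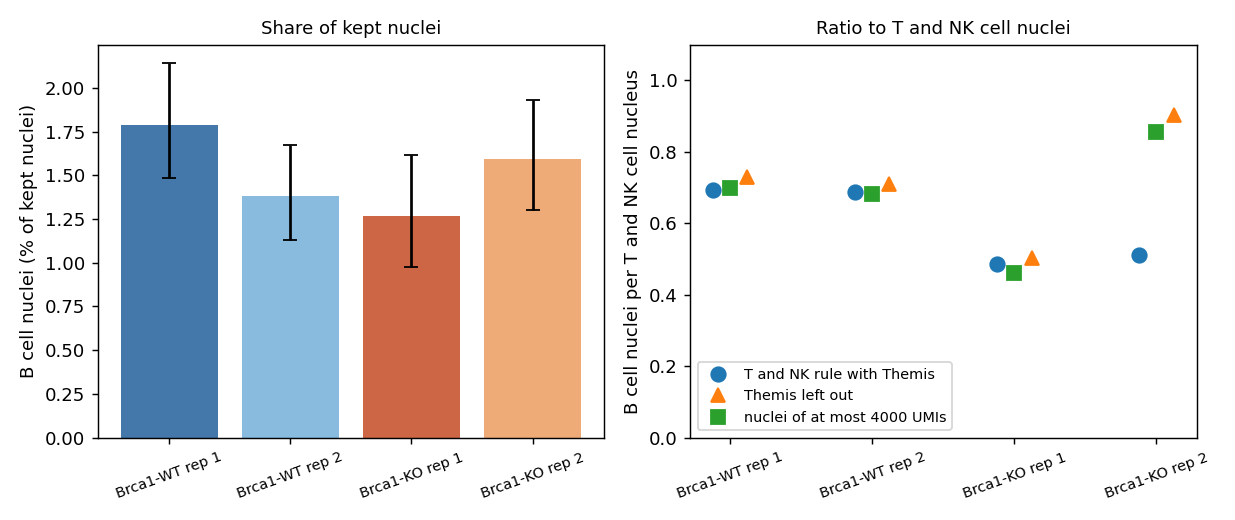
Left, B cell nuclei as a share of kept nuclei (vertical axis, %) in the 4 libraries with exact 95% binomial intervals. Right, B cell nuclei for each T and NK cell nucleus under the rule with Themis (circles), without Themis (triangles) and in nuclei of at most 4000 UMIs (squares); Brca1-KO-labelled replicate 2 moves from 0.512 to 0.904 and 0.856.

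The next comparison asked which genes differed in B cell nuclei. UMIs were summed over the members of each library and tested with edgeR over 4711 genes. At an adjusted p below 0.05, 0 genes passed (0%), and the smallest adjusted p was 0.349. At an unadjusted p below 0.05 there were 100 higher (2.12%) and 103 lower (2.19%) in the Brca1-KO-labelled libraries, 203 in all (4.31%). DESeq2 called 1 gene (0.0212%), Runx2. The edgeR count rested on the set of libraries: 5 genes passed when Brca1-WT replicate 1 was left out and 17 when Brca1-WT replicate 2 was. Dropping Brca1-KO-labelled replicate 1 gave 128, and dropping Brca1-KO-labelled replicate 2 gave 68. In simulated sums of the same depth, the test recovered 8% of 200 genes changed 2-fold and 77.5% of those changed 4-fold. The data differ from those sums, so these shares do not give what the test would recover here. In the data, Runx2 and Apba1 had log2 fold changes of 3.36 and 3.43 and did not pass (edgeR adjusted p = 0.349 for each). Since 0 genes passed over all 4 libraries, every gene below is given with its values, and none is called changed.

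Bhmt gave 209, 129, 58 and 19 UMIs in B cell nuclei, in 52, 35, 15 and 13 of the members. Its level was 854, 703, 487 and 104 CPM, with means of 778 ± 107 and 296 ± 271 CPM (SD, n = 2 each). Both Brca1-KO-labelled libraries lay below both Brca1-WT libraries. The log2 fold change was -1.46 (standard error 0.59) and missed the threshold (edgeR, unadjusted p = 0.0410 and adjusted p = 0.999). Bhmt is a hepatocyte gene, and in the other kept nuclei it stood in the same order, at 1630, 1085, 655 and 257 CPM, and in T and NK cell nuclei at 1012, 634, 306 and 383 CPM. The difference in B cell nuclei minus that in T and NK cell nuclei was -0.48 on the log2 scale (standard error 0.71, edgeR adjusted p = 0.967). Without Brca1-KO-labelled replicate 1, the log2 fold change of Bhmt was -2.90 and passed the test. Without Brca1-KO-labelled replicate 2 it was -0.68 (edgeR adjusted p = 0.483), so its size rests on that library. With no low-count filter the log2 fold change was -1.52 and passed (edgeR adjusted p = 0.00349). Bhmt2, a close paralog that may share reads, was at 168, 169, 75.6 and 76.6 CPM (log2 fold change -1.13, standard error 0.37, adjusted p = 0.999). Of 19 tested genes of the one-carbon and methionine cycle, to which both belong, 7 were higher and 12 lower, with a median of -0.11.

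The 5 lower genes of smallest p whose groups did not overlap were G6pc, Sntg2, Cyp4a10, Slco1a1 and Agbl1. G6pc, Cyp4a10 and Slco1a1 are genes of hepatocytes: G6pc is the last enzyme of glucose release, Cyp4a10 a fatty acid omega-hydroxylase and Slco1a1 an organic anion transporter. G6pc was at 486, 447, 160 and 93.0 CPM in B cell nuclei and at 927, 374, 368 and 107 CPM in the other kept nuclei (log2 fold change in B cell nuclei -1.92, standard error 0.33, adjusted p = 0.349). Cyp4a10, which shares sequence with close paralogs, was at 298, 561, 151 and 71.2 CPM, and at 435, 680, 229 and 66.1 CPM in the other nuclei. Slco1a1 was at 429, 245, 126 and 49.3 CPM, against 591, 422, 281 and 119 CPM. Sntg2, which encodes a syntrophin, was at 233, 147, 16.8 and 49.3 CPM, against 384, 223, 60.4 and 82.6 CPM. For all 4, both Brca1-KO-labelled libraries lay below both Brca1-WT libraries in B cell nuclei and in the other nuclei alike.

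Agbl1, a member of the carboxypeptidase family that shortens polyglutamate tails on proteins, was at 176, 120, 0 and 32.8 CPM in B cell nuclei and at 3.90, 1.47, 1.22 and 0.880 CPM in the other nuclei. In members of at most 4000 UMIs Brca1-WT replicates 1 and 2 gave 42 and 22 of its UMIs, in 5 and 7 nuclei, against 0 in both Brca1-KO-labelled libraries. The Brca1-WT mean there was 7.57 times the mean level of the 3 UMIs that a count of 0 allows in each Brca1-KO-labelled library. That allowance takes UMIs as independent, while these came from few nuclei, so the figure is not a lower limit of the difference. In members of at most 4000 UMIs Agbl1 was the 1 gene of 2901 to pass (0.0345%, edgeR adjusted p = 0.00137), where 170 had an unadjusted p below 0.05 (5.86%). Over all members it did not pass (log2 fold change -2.90, standard error 0.69, adjusted p = 0.890). Of the 42 and 22 UMIs, 24 and 13 came from 1 nucleus each. Over all members Agbl1 passed with no low-count filter, and without Brca1-WT replicate 2 or either Brca1-KO-labelled library.

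The 5 higher genes were Runx2, Apba1, Grm8, Ppm1h and Fyb, and in the Brca1-KO-labelled libraries each leaned on few nuclei. Runx2, the osteoblast factor that plasmacytoid dendritic cells also express, gave 7, 5, 51 and 32 UMIs (28.6, 27.2, 429 and 175 CPM; log2 fold change 3.36, standard error 0.55, adjusted p = 0.349). Of the 51 and 32 UMIs, 49 and 31 came from 1 nucleus in each library. The nucleus in Brca1-KO-labelled replicate 2 also held 46 of 70 Grm8, 18 of 37 Ppm1h, 20 of 55 Fyb and 11 of 23 Apba1 UMIs. It held 18 UMIs of Siglech, 13 of Pacsin1 and 4 of Ccr9, which are markers of plasmacytoid dendritic cells, and 0 of Pax5. Of the other markers on that list, Klk1 and Cox6a2 were at 0 in all members, and Bst2 was not counted for this nucleus alone. Members with at least 3 UMIs summed over these markers numbered 3, 1, 3 and 1, so both genotypes held some. The nucleus in Brca1-KO-labelled replicate 1 held 0 UMIs of Siglech, Pacsin1, Ccr9 and Pax5, and had entered the rule with 6 UMIs of Btla and 1 of Ighd. Both were above 4000 UMIs, and in members of at most 4000 UMIs Runx2, Apba1 and Grm8 were below the level needed for a test, while the log2 fold change was 1.35 for Ppm1h and 2.42 for Fyb.

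The same 2 nuclei touched a B cell list. Tcf4, an E protein of both B cells and plasmacytoid dendritic cells, was at 478, 349, 899 and 739 CPM, with both Brca1-KO-labelled libraries higher (log2 fold change 0.98, standard error 0.30, edgeR unadjusted p = 0.00927, adjusted p = 0.999). They held 50 of 107 and 58 of 135 of its UMIs. In members of at most 4000 UMIs the log2 fold change of Tcf4 was 0.01. Bcl11a, a leading gene, was at 654, 572, 966 and 717 CPM, and those nuclei held 31 of 115 and 25 of 131 of its UMIs.

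**Figure D5:**
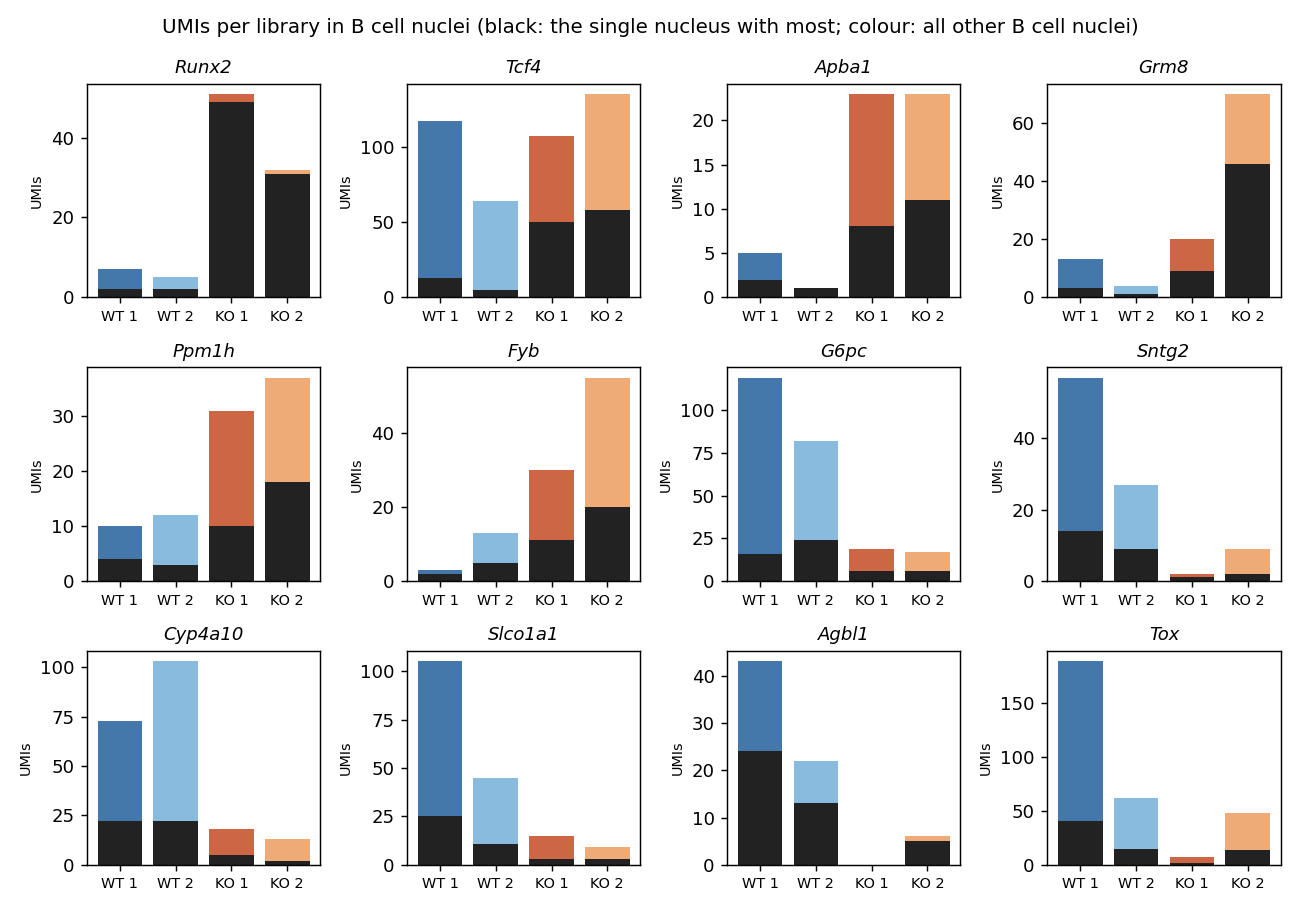
UMIs of 12 genes summed over B cell nuclei (vertical axes) in the 4 libraries, with the part from the single nucleus that held most in black and all other B cell nuclei in colour. For Runx2, 1 nucleus gave 49 of 51 and 31 of 32 UMIs in the Brca1-KO-labelled libraries, while G6pc, Cyp4a10 and Slco1a1 were spread over more nuclei.

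In the lists of B cell genes, 0 genes passed. The 7 genes of the rule were left out of the tallies, since their values chose the members. Of the 16 other tested B cell identity genes, 5 were higher and 11 lower in the Brca1-KO-labelled libraries. Their median log2 fold change was -0.20, against 0.02 over all 4711 genes, where 51.6% were higher and 48.4% lower. For 3 the groups did not overlap upward and for 4 downward, against 15.6% and 16.7% of all 4711 genes. The genes of the rule are given as a description, with no test. Btla was at 1699, 1498, 1546 and 728 CPM, low in 1 library, the one labelled Brca1-KO replicate 2. Pax5 was at 1128, 1373, 975 and 909 CPM, lower in both Brca1-KO-labelled libraries. Ms4a1 lay slightly higher in both Brca1-KO-labelled libraries, at 155, 163, 168 and 181 CPM. Blk, at 196, 294, 193 and 350.3 CPM, and Ighd, at 380, 534, 471 and 296 CPM, overlapped.

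Of 18 tested transcription factors, 8 were higher and 10 lower (median -0.06), and of 30 tested receptor signalling genes, 15 and 15 (median -0.0039). Fyn, a Src-family kinase on that list, had an unadjusted p below 0.05, at 131, 104, 202 and 246 CPM, with 19 of the 45 UMIs of the last library in 1 nucleus. All 4 tested immunoglobulin constant genes beside Ighd were lower (median -0.52): Ighm, Igkc, Iglc2 and Iglc3. Of these, Ighm was at 523, 490, 437 and 290.1 CPM (log2 fold change -0.50, standard error 0.29, adjusted p = 0.999). Antigen presentation genes gave 5 higher and 8 lower of 13 (median -0.20), survival and cytokine receptor genes 5 and 9 of 14 (median -0.08), and homing genes 4 and 6 of 10 (median -0.07). Follicular genes gave 0 and 4 of 4 (median -0.36). Homologous recombination genes gave 4 and 4 of 8 (median 0.01), and p53 targets 0 and 5 of 5 (median -0.25).

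Of 14 tested unfolded protein response genes, 10 were higher and 4 lower, with a median of 0.68. Hspa5, the endoplasmic reticulum chaperone BiP, was at 81.7, 49.0, 50.4 and 241 CPM, and Hsp90b1, its partner chaperone, at 188, 109, 134 and 378 CPM. In both, Brca1-KO-labelled replicate 2 was high and the other Brca1-KO-labelled library lay among the Brca1-WT values. The summed list, unscaled, stood at 1992, 1736, 1816 and 3117 CPM in B cell nuclei and at 2162, 1669, 2304 and 4345 CPM in the other kept nuclei. The same library was high in both. Herpud1, a factor of endoplasmic reticulum degradation, was at 241, 272, 210.1 and 569 CPM in B cell nuclei and at 153, 226, 223 and 767 CPM in T and NK cell nuclei.

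Mitochondrially encoded RNA made up a median of 0.987%, 0.364%, 0.619% and 1.07% of UMIs in B cell nuclei and 0.181%, 0.147%, 0.108% and 0.0989% in the other kept nuclei. Within B cell nuclei the groups overlapped, and of 11 tested genes 10 were higher and 1 lower in the Brca1-KO-labelled libraries (median 0.48). mt-Co1 was at 2778, 1601, 1773 and 3519 CPM, high in 1 library of each genotype.

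Last, the genotype difference in B cell nuclei was set against that in T and NK cell nuclei of the same libraries. The T and NK cell set of Brca1-KO-labelled replicate 2 is in doubt here: its 201 nuclei were 114 with Themis left out of the rules, and its level of Fyb, an adaptor of T cells, was 94.8 CPM against 573, 661 and 701 CPM in the other libraries. With that set as it stands, of 6545 genes, 0 passed the edgeR test of the interaction (0%), and 297 had an unadjusted p below 0.05 (4.54%). In simulated sums with 1 shared profile for both cell classes and the same spread setting for every gene, that test recovered 39.5% of 200 genes changed 8-fold. The data differ from that setting, so this share does not give what the test would recover here. Leaving out Brca1-KO-labelled replicate 1 gave 580 calls, leaving out Brca1-KO-labelled replicate 2 gave 3, and leaving out either Brca1-WT library gave 0.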

How the data were processed

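The deposited files hold raw UMI counts for each gene and barcode, which the authors produced by Cell Ranger 6.0.0, per the file headers. The submitters' processing notes name the human build GRCh38, while all 32285 gene identifiers are mouse identifiers. The treatment of strand and introns and the mouse build: not given in the sources used here. Member counts were summed per library and compared without a block (edgeR 4.0.16: TMM, filterByExpr, glmQLFit robust, glmQLFTest; R 4.3.3), with Benjamini-Hochberg adjustment. Shares had exact permutation tests. Doublets were called with Scrublet (scanpy 1.11.5, expected rate 0.06) and kept in the main result. T and NK cell nuclei had at least 3 UMIs of 7 T cell genes, among them Skap1, Themis, Cd3e, Cd3g, Bcl11b and Cd247, and 0 of Stab2, Ptprb, Reln, Cd5l, Clec4f, Pax5 and Bank1. Thinning drew fixed numbers of UMIs at random. Named were Brca1, Bhmt, the rule's genes, fixed markers, 20 leading genes, up to 4 list members of highest level, and 5 genes each way of smallest p with groups apart and average log2 CPM of at least 5, leaving out unnamed models and genes of other-cell lists. Others (among them Tcf4, Fyn, Igkc, H2-Ob and the subset genes) were chosen after their values were seen. Some genes are not reported here. Tests were tried on simulated counts. Members and lists were chosen with earlier results of these data known. Alternatives included DESeq2 1.42.0, its size factors, filters, each replicate left out and a replicate block.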

Additional observations from a re-analysis of the deposited data

How the results depend on the processing

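The difference in the share of B cell nuclei turned positive among nuclei of at most 4000 UMIs (0.111 percentage points) and among nuclei with under 1% hepatocyte UMIs (0.236), and lay between -0.359 and 0.0492 with 1 library left out. The ratio to T and NK cell nuclei kept its direction in the alternatives run, the smallest being -0.0152 without Themis, and ran from -0.207 to -0.179 with 1 library left out. The lambda difference kept its direction in the alternatives run, between 10.8 and 18.7 points with 1 library left out. The count of genes went from 0 to 1 with DESeq2, 25 with no low-count filter, 1 in members of at most 4000 UMIs, and 5 to 128 with 1 library left out. That of the interaction went from 0 to 19 with no filter, 1 at 4000 UMIs, 1 without Themis, and 0 to 580 with 1 library left out. The cause was not tested. Of 157 values of 11 named genes, 110 kept their side of the threshold, 47 came to pass it and 0 changed sign. All 11 had groups apart in the main result, and for all but Bhmt this was a condition of the choice. A kept sign was therefore largely set beforehand and is no support. Settings in which a gene fell below the level needed for a test are not among the 157. The replicate numbers did not pair the libraries (correlation of deviations -0.0138 over 4711 genes), and with the replicate block 0 genes passed. With 2 libraries a group, the share, ratio and lambda differences under it are by arithmetic the same numbers, -0.155, -0.193 and 14.7. Depth limits what can be seen, with member sums of 133267 to 276640 UMIs. Settings of at most 4000 UMIs, marker support and without Themis were added after the data were seen.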

Other observations

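Of 31 interferon response genes, 29 were in the files and 8 were tested, 5 higher and 3 lower in the Brca1-KO-labelled libraries (median log2 fold change 0.21). Sp100, a nuclear body protein, was at 400.4, 376, 471 and 405 CPM, and Samd9l, an antiviral translation inhibitor, at 119, 131, 168 and 230 CPM, and 0 passed the test. Among pattern recognition genes, Ly86, which partners Cd180 on the B cell surface, was found in 188 members, and Cd180 in 112. Cd180 was at 274, 240, 193 and 153 CPM. Tlr2, Tlr6 and Tlr9 were at 0 UMIs in all 4 libraries, which allows up to 3 in each. Among immediate early genes, Fos, Fosb, Egr2, Nr4a3 and Myc were at 0.

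Tox, a nuclear factor of T cells, was at 768, 338, 58.8 and 263 CPM in B cell nuclei (188, 62, 7 and 48 UMIs in 34, 20, 6 and 31 members), and did not pass (log2 fold change -1.71, standard error 0.62, edgeR adjusted p = 0.999). In members of at most 4000 UMIs its log2 fold change was 0.09, at 203, 172, 97.1 and 257 CPM. Mrc1, the mannose receptor of sinusoidal endothelium and macrophages, was at 36.8, 38.1, 168 and 82.1 CPM, with 11 of 20 and 8 of 15 UMIs from 1 nucleus in each Brca1-KO-labelled library.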
